A study of Mus musculus with 21 samples.

Results

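The semaphorins, plexins and neuropilins are 31 genes of the 55400 in the deposited tables, chosen by name: 20 semaphorins, which are the ligands, and 11 receptors, of which 2 are neuropilins. All 31 had a row in the tables, and 30 passed the filter on low counts, *Plxnb3* being the exception with 0 to 4 counts per library. RNA was sequenced from motor neuron (MN) cultures made from wild-type C57BL/6 mouse embryonic stem cells at D4, D4H8 (8 h after day 4), D5 and D6, and from cultures given GSKJ4, an inhibitor of the Kdm6 demethylases of H3K27me3, for a day before collection at D4H8, D5 and D6. These are 7 groups of 3 biological replicates. All groups shared the C57BL/6 background, stem cells kept on a layer of embryonic fibroblasts, and retinoic acid with a Sonic Hedgehog agonist from day 2. DAPT, which blocks Notch cleavage, was added at D4 to direct the cells to the hypaxial motor column. At D5 the cultures were moved to the base medium with DAPT, whose recipe holds neither retinoic acid nor the agonist, so both D6 groups had spent their last day in it. Later stages, longer exposure to DAPT and, at D6, the change of medium cannot be told apart. The vehicle given to the untreated cultures was not given in the sources used here.

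Semaphorins are guidance proteins that steer growing axons and migrating neurons, mostly by repulsion. Class 3 semaphorins are secreted and mostly act through a neuropilin, which binds the ligand, and a plexin, which carries the signal into the cell. Classes 4, 5 and 6 span the membrane and class 7 is held by a lipid anchor, and these bind without a neuropilin. Plexins act on small GTPases and, through kinases and collapsin response mediator proteins, on the cytoskeleton of the growth cone. Spinal motor axons read Sema3a through Nrp1 and Sema3f through Nrp2 on their way to the limb.

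The labels call the cells differentiated MNs, and the marker genes changed with stage. The summed level of 7 MN markers was 7.60 to 19.2 FPKM (fragment counts scaled by exon length and by the library's total) over the D4 libraries and 410.4 to 470.3 FPKM at D6, and that of 7 neuronal markers 33.5 to 67.0 FPKM at D4 and 2726 to 3059 FPKM at D6. Pluripotency markers were still present at D6, at 11.2 to 90.6 FPKM over 5 genes, against 121 to 285 FPKM at D4. The neural progenitor sum of 8 genes was 215 to 295 FPKM at D4 and 291 to 355 FPKM at D6, ranges that overlap. By gene, 5 of these were called lower and 2 higher in the test used below, against 31% and 32.9% of all tested genes. The floor plate sum of 4 genes was 27.9 to 36.3 FPKM at D4 and 55.8 to 87.0 FPKM at D6. Total counts per library ranged from 14982115 to 34383842. Replicate 2 of the treated D5 cultures stood apart, where 39381 genes had no count, while the remaining libraries had 29339 to 32805 such genes. These were whole cultures, so fewer cells of a type and less RNA per cell cannot be told apart.

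Promoters are shown for the members with the largest rises between D4 and D6 that have an entry in the RefSeq tables. The windows are on GRCm38.p6, up to 250 bases before the annotated start and cut where the Ensembl gene begins, and capitals mark CpG dinucleotides. *Nrp2* (chr1:62703067-62703284, plus strand) had 28 in 218 bases, *Sema5a* (chr15:32244563-32244809, plus strand) 17 in 247, *Sema6d* (chr2:124089719-124089968, plus strand) 9 in 250 and *Sema3d* (chr5:12382916-12383165, plus strand) 4 in 250.
Nrp2: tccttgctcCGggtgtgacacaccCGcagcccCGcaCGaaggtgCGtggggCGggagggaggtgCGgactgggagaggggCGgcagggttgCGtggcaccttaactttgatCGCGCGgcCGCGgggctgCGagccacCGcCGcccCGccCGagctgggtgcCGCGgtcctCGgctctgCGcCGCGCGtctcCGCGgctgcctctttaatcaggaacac
Sema5a: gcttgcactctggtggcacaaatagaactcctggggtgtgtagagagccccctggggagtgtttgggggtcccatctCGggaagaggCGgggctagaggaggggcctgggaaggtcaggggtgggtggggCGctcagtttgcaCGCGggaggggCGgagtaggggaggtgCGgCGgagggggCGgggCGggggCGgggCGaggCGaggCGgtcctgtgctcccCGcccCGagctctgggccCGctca
Sema6d: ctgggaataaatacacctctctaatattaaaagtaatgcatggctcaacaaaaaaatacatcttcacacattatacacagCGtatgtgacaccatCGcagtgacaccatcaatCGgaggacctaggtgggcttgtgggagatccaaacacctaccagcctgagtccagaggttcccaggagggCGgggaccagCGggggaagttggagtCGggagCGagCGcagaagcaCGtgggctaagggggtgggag
Sema3d: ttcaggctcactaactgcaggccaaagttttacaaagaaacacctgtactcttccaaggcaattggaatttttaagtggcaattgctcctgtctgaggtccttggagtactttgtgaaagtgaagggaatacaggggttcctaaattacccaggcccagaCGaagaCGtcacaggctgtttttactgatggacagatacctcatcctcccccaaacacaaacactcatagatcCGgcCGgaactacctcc
The windows of *Nrp2* and *Sema5a* are dense in CpG and that of *Sema3d* is not, although the rises of these genes were close in size.

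Of the 31 members, 26 had a window and together they had 37, with a median of 13 CpG in 250 upstream bases against 6 over all 32851 windows. These windows were searched on both strands for the E-boxes CAGATG and CAGCTG, the homeodomain core TAATTA, and ATCGAT and ATTGAT, which Onecut factors bind. Each motif was counted on its own, so matches that share bases count for both. CAGATG was in 5.41% of member windows and 14.4% of all windows, CAGCTG in 16.2% and 13%, and ATTGAT in 2.70%, a single window of *Sema6d*, and 6.72%. TAATTA and ATCGAT were in no member window and in 4.84% and 0.728% of all windows. A match describes the letters of the window and is not a binding site.

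Expression of the family rose through differentiation, and its makeup changed. At least 1 FPKM on average was reached by 20 of 31 members at D4, 22 at D4H8, 27 at D5 and 28 at D6. The 20 ligands summed to 40.9, 46.4 and 55.1 FPKM in the D4 libraries and to 295, 226 and 234 FPKM in the D6 libraries. The 11 receptors summed to 56.1, 72.3 and 83.7 FPKM at D4 and to 275, 212 and 232 FPKM at D6. No D6 library overlapped a D4 library in either sum. The ratio of ligand to receptor FPKM was 0.677 ± 0.0471 (SD, n = 3) at D4 and 0.606 ± 0.0303 at D4H8. It was 0.784 ± 0.0431 at D5, and 1.05 ± 0.0361 in the D6 libraries. With 3 libraries against 3, a two-sided exact permutation test of D6 against D4 gave p = 0.1 for each sum and for the ratio, the smallest value this design allows.

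**Figure D1:**
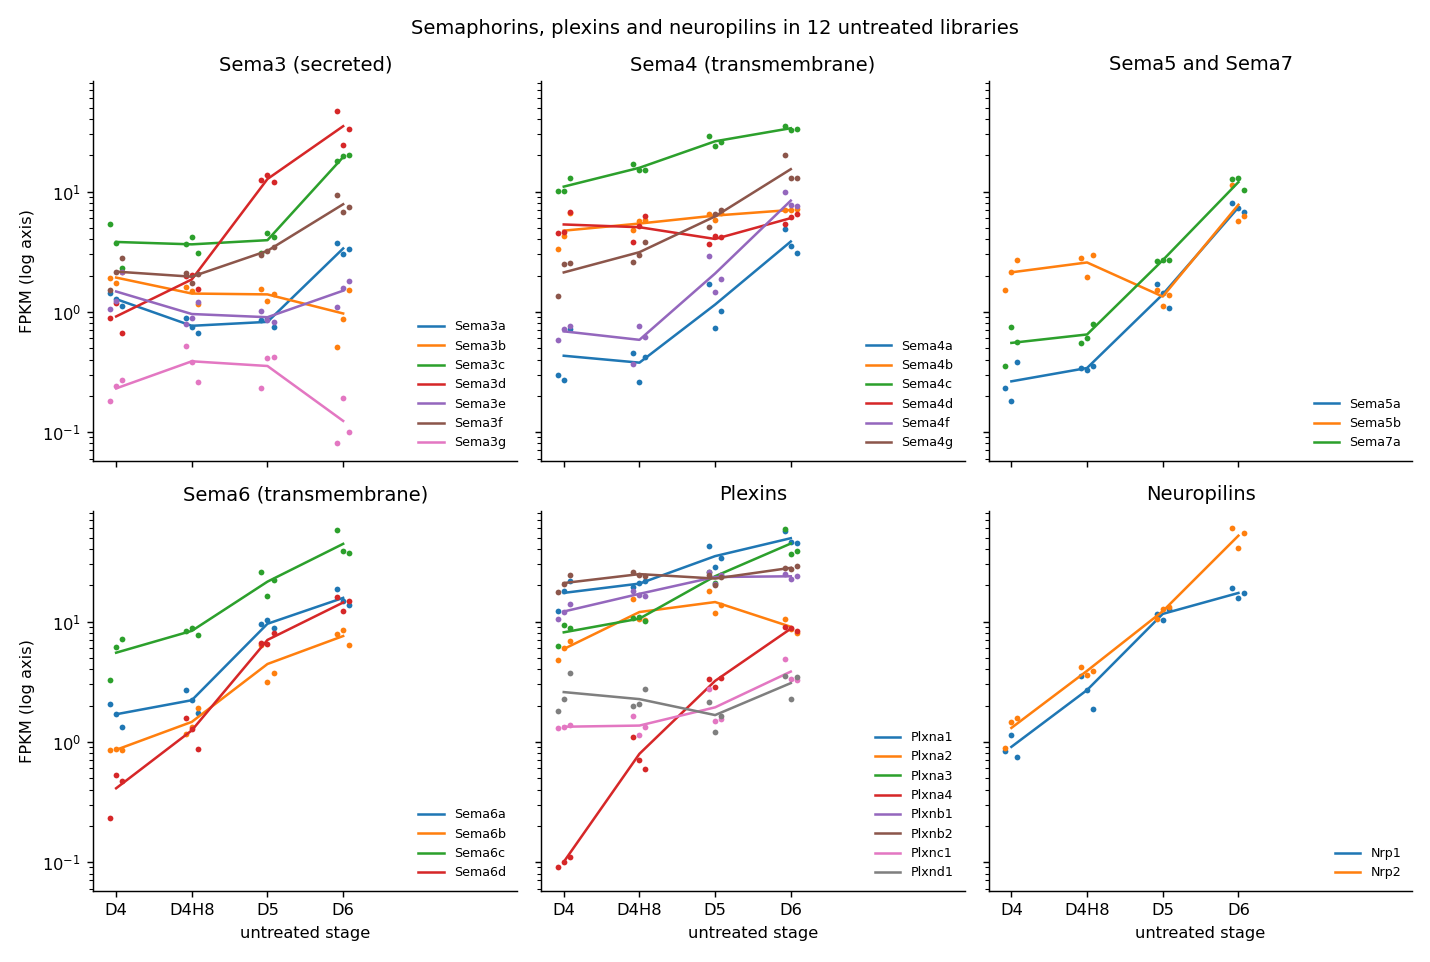
FPKM on a log axis of 30 members (all but *Plxnb3*) in the untreated libraries at 4 stages, by class; points are single libraries and lines join the means of 3. *Plxna4*, *Nrp2*, *Sema3d* and *Sema6d* climb most steeply, while *Sema3b*, *Sema3g* and *Plxna2* end below their highest stage.

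The leading genes changed too. At D4 the most abundant ligand was *Sema4c*, a transmembrane ligand of Plexin-B2, at 10.99 ± 1.62 FPKM (SD, n = 3), and the most abundant receptor *Plxnb2* itself, at 20.9 ± 3.51 FPKM. At D6 the leading ligands were *Sema6c* (44.4 ± 11.3 FPKM), *Sema3d* (35.0 ± 11.5 FPKM) and *Sema4c* (33.7 ± 1.47 FPKM). The libraries of *Sema3d* overlapped those of the other two, while every library of *Sema6c* lay above those of *Sema4c*. The leading receptors at D6 were *Nrp2* (51.9 ± 9.60 FPKM), *Plxna1* (49.4 ± 6.74 FPKM) and *Plxna3* (44.6 ± 12.2 FPKM), again with overlapping libraries. *Nrp2* went from 1.82% of the receptor sum at D4 to 21.6% at D6 and *Nrp1* from 1.32% to 7.24%, while *Plxnb2* went from 29.7% to 11.8%. Class 4 went from 50.8% to 29.7% of the ligand sum, class 6 from 17.8% to 32.5%, and class 3 from 25.3% to 27.0%.

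**Figure D2:**
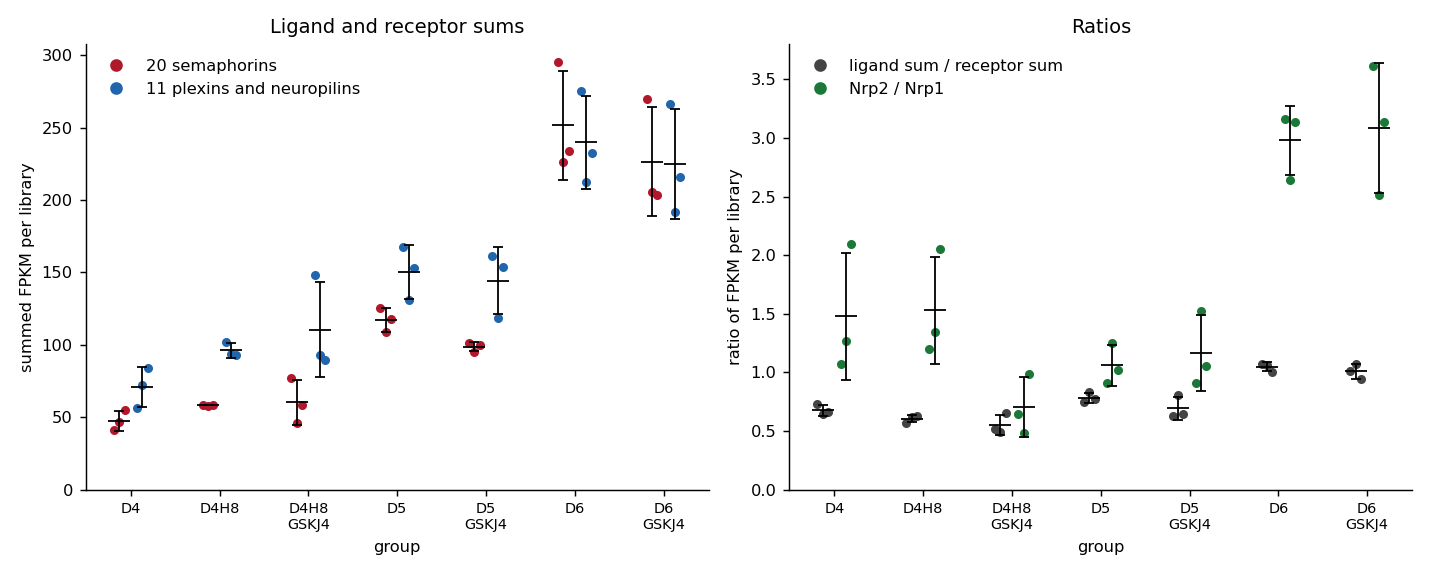
Left, summed FPKM of the 20 semaphorins and the 11 receptors in each of the 21 libraries; right, the ratio of these sums and the ratio of *Nrp2* to *Nrp1*. Points are libraries and black bars the mean ± SD of 3; the ligand sum exceeds the receptor sum on average at D6 (ratio 1.05) but not at D4 (0.677).

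D6 was compared with D4 to ask which members change over the whole course. In edgeR's quasi-likelihood test, with an adjusted p under 0.05 as the threshold, 25 members were higher and 1 lower, against 32.9% of all tested genes called higher and 31% called lower (63.9% in all). The median log2 fold change was 2.67 (log2) over the 20 ligands and 1.60 over the 10 receptors tested, against -0.04 over all genes. All 4 class 6 and both class 5 members, *Sema7a*, 5 of 6 class 4 members, all 4 A plexins and both neuropilins were higher. Class 3 was mixed, with 4 higher, *Sema3b* lower, and *Sema3e* and *Sema3g* not passing the test.

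**Figure D3:**
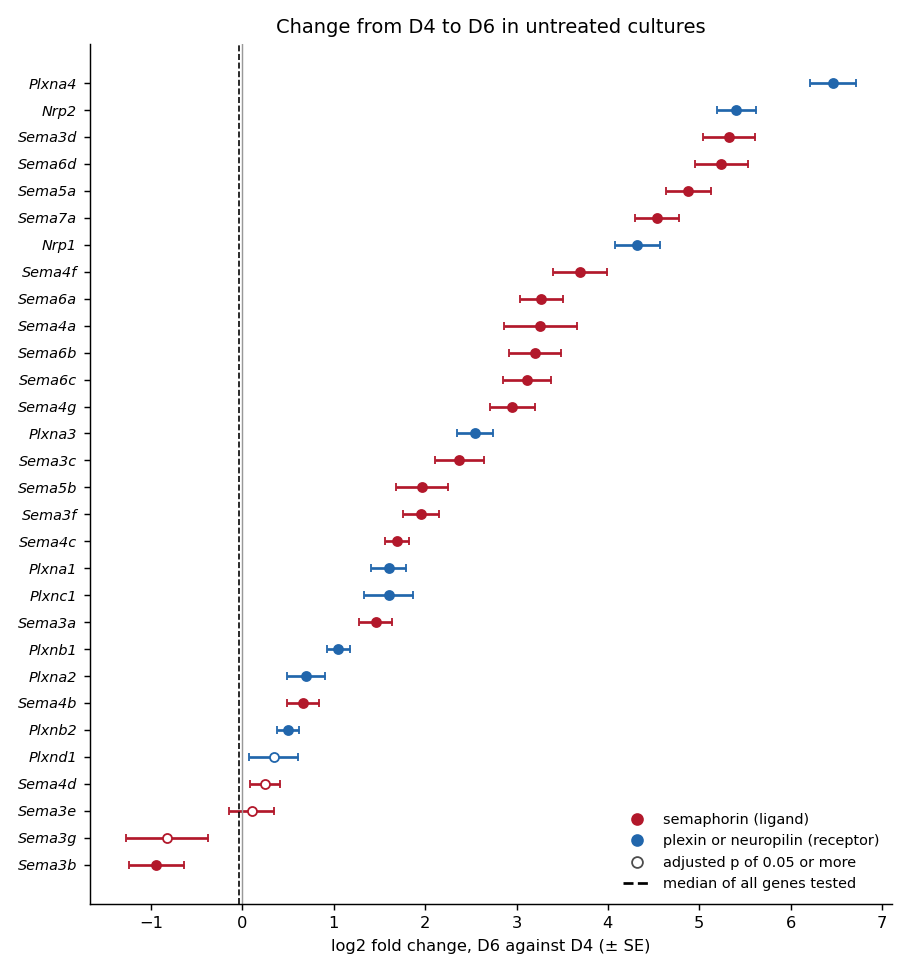
Log2 fold change (± SE) from D4 to D6 of the 30 members tested, ligands in red and receptors in blue, with open points for members that did not pass an adjusted p of 0.05 and a dashed line at the median of all genes tested (-0.04). *Plxna4* (6.46), *Nrp2* (5.41) and *Sema3d* (5.33) lie at the top and *Sema3b* (-0.94) at the bottom.

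The largest rises of the family were of 2 receptors, *Plxna4* and *Nrp2*. *Plxna4* (ENSMUSG00000029765, chr6:32144268-32588192, minus strand), a receptor for class 6 semaphorins and a partner of neuropilins, stood at 0.09, 0.10 and 0.11 FPKM in the D4 libraries, 1.09, 0.70 and 0.59 at D4H8, 3.35, 2.88 and 3.40 at D5 and 8.97, 8.86 and 8.36 at D6. Every stage was clear of the one before it. Between D4 and D6 it rose by 6.46 on the log2 scale (SE 0.25, adjusted p = 1.97e-10), the largest change of the family.

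*Nrp2* (ENSMUSG00000025969, chr1:62703285-62818695, plus strand), the neuropilin that binds Sema3f and Sema3c, stood at 0.89, 1.45 and 1.57 FPKM at D4, 4.19, 3.61 and 3.88 at D4H8, 10.6, 12.8 and 13.2 at D5 and 59.8, 41.2 and 54.7 at D6. Its stages did not overlap, and it rose by 5.41 on the log2 scale between D4 and D6 (SE 0.21, adjusted p = 1.97e-10). *Nrp1* (ENSMUSG00000025810, chr8:128358604-128503363, plus strand), the neuropilin that binds Sema3a, stood at 0.83, 1.14 and 0.75 FPKM at D4, 3.50, 2.69 and 1.89 at D4H8, 11.7, 10.3 and 12.8 at D5 and 18.9, 15.6 and 17.4 at D6, again without overlap (log2 fold change 4.32, SE 0.24, adjusted p = 3.38e-09). The neuropilins were at like levels at D5, where the ratio of *Nrp2* to *Nrp1* FPKM was 0.909, 1.25 and 1.02. At D6 it was 3.16, 2.64 and 3.14, above every library of the earlier stages.

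Among the ligands, *Sema3d* (ENSMUSG00000040254, chr5:12383385-12588948, plus strand), a secreted class 3 member, stood at 0.88, 1.19 and 0.67 FPKM at D4, 2.00, 2.01 and 1.56 at D4H8, 12.5, 13.6 and 12.1 at D5 and 47.2, 24.3 and 33.4 at D6 (log2 fold change 5.33, SE 0.28, adjusted p = 2.24e-09). *Sema6d* (ENSMUSG00000027200, chr2:124089969-124667770, plus strand), a transmembrane ligand of Plexin-A1, stood at 0.23, 0.53 and 0.47 FPKM at D4, 1.59, 1.27 and 0.87 at D4H8, 6.59, 6.50 and 8.03 at D5 and 16.2, 12.2 and 14.9 at D6 (log2 fold change 5.24, SE 0.29). Neither gene overlapped between successive stages. *Sema5a* (ENSMUSG00000022231, chr15:32244810-32696341, plus strand), a transmembrane ligand of Plexin-B3, stood at 0.23, 0.18 and 0.38 FPKM at D4 and 0.34, 0.33 and 0.35 at D4H8, which overlap, then at 1.69, 1.42 and 1.07 at D5 and 8.01, 7.34 and 6.79 at D6 (log2 fold change 4.88, SE 0.24). *Sema7a*, the lipid-anchored ligand of Plexin-C1, stood at 0.35, 0.74 and 0.56 FPKM at D4 and 12.7, 12.9 and 10.3 at D6 (log2 fold change 4.54, SE 0.24).

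*Sema3b*, a secreted ligand, was the 1 member called lower at D6. It stood at 1.89, 1.75 and 2.13 FPKM at D4 and 0.51, 0.87 and 1.52 at D6, without overlap (log2 fold change -0.94, SE 0.30, adjusted p = 0.0146). The call was lost without D6 replicate 1 (adjusted p = 0.0557) or D6 replicate 2 (adjusted p = 0.0537). *Sema3g* (log2 fold change -0.83, SE 0.45), *Sema3e* (0.10, SE 0.25), *Sema4d* (0.25, SE 0.17) and *Plxnd1* (0.34, SE 0.27) did not pass the test. The other 18 called members rose by between 0.50 (*Plxnb2*) and 3.69 (*Sema4f*) on the log2 scale. *Sema4c*, *Sema5b*, *Plxna1* and *Plxnb1* overlap expressed genes on the opposite strand, and the strand used in counting was not stated, so their values are uncertain.

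The first step, from D4 to D4H8, was narrow and led by receptors. In these 8 h 6 members were higher and 1 lower, 7 of 30, against 4.06% and 0.32% of all tested genes (4.38% in all). With the replicate number as a block 9 were called, *Sema4c* and *Plxnb1* in addition, against 5.39% of all tested genes. *Plxna4* rose by 2.91 (SE 0.24), *Sema6d* by 1.61 (SE 0.27), *Nrp2* by 1.55 (SE 0.18) and *Nrp1* by 1.54 (SE 0.22) on the log2 scale, with adjusted p of at most 0.00253, and these 4 were called in all 12 refits that left out a library. *Plxna2*, a receptor for class 6 semaphorins, stood at 4.76, 6.05 and 6.93 FPKM at D4 and 15.3, 10.5 and 10.2 at D4H8 (log2 fold change 0.99, SE 0.21, adjusted p = 0.0134), and lost the call without D4 replicate 1 or 2 or D4H8 replicate 1 (adjusted p 0.0562 to 0.0839). *Sema3d* was called at adjusted p = 0.0482 and lost the call in 9 of 12 refits without a library.

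*Sema3a*, the ligand of Nrp1, went the other way in the same hours. It stood at 1.43, 1.28 and 1.11 FPKM at D4 and at 0.88, 0.74 and 0.67 at D4H8, without overlap (log2 fold change -0.80, SE 0.19, adjusted p = 0.0248). The call was lost without D4 replicate 1 or 2 or D4H8 replicate 2 or 3 (adjusted p 0.0661 to 0.171). Without D4 replicate 1, or without D4 replicate 2, 4 members were called, against 393 and 487 of all tested genes. The neuronal marker sum moved in the same step, from 33.5 to 67.0 to 188 to 363 FPKM, and its part in these changes was not tested.

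From D4H8 to D5, 18 members rose and 1 fell, against 17.2% and 10.5% of all tested genes (27.7% in all). The largest rises were of ligands, *Sema3d* (2.77, SE 0.25), *Sema6d* (2.48, SE 0.25) and *Sema6a* (2.1, SE 0.22), with adjusted p of at most 1.16e-05. *Sema6a*, a transmembrane ligand of Plexin-A2 and Plexin-A4, stood at 2.70, 2.23 and 1.72 FPKM at D4H8 and 9.59, 10.3 and 8.85 at D5. *Nrp1* came next (log2 fold change 2.09, SE 0.22), so ligands and receptors rose together in this step. *Sema5b*, a transmembrane ligand, was the 1 member that fell, from 2.79, 1.96 and 2.96 FPKM to 1.51, 1.12 and 1.38 (log2 fold change -0.94, SE 0.28, adjusted p = 0.0239), and lost the call without D4H8 replicate 1 or 3 or D5 replicate 2 or 3 (adjusted p 0.0517 to 0.077).

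The step from D5 to D6 moved the most members, 25 higher and 2 lower of 30, against 19.2% and 15.1% of all tested genes (34.3% in all). *Sema5b* turned here, reaching 11.4, 5.69 and 6.22 FPKM (log2 fold change 2.67, SE 0.29, adjusted p = 1.88e-05), and *Sema5a* rose by 2.52 (SE 0.21) on the log2 scale. *Sema3c*, a secreted ligand of both neuropilins, rose from 3.11, 4.54 and 4.17 to 18.1, 19.7 and 20.3 FPKM (log2 fold change 2.41, SE 0.27). *Sema3a* rose from 0.86, 0.87 and 0.74 to 3.75, 3.01 and 3.32 FPKM (log2 fold change 2.14, SE 0.19), so that D4H8 and D5 were its lowest stages. *Nrp2* rose by 2.21 (SE 0.18) and *Nrp1* by 0.70 (SE 0.21, adjusted p = 0.0187).

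*Sema3g* and *Plxna2* were the 2 members that fell from D5 to D6. *Sema3g*, a scarce secreted ligand, stood at 0.23, 0.41 and 0.42 FPKM at D5 and 0.08, 0.19 and 0.10 at D6 (log2 fold change -1.38, SE 0.44, adjusted p = 0.0261), and lost the call in 4 of 12 refits without a library. *Plxna2* stood at 18.01, 11.8 and 13.8 FPKM at D5 and 10.5, 8.68 and 8.01 at D6 (log2 fold change -0.57, SE 0.21, adjusted p = 0.0458), and lost the call in 6 of 12. Its share of the receptor sum was 12.4% at D4H8 and 3.78% at D6. The other A plexins, *Plxna1*, *Plxna3* and *Plxna4*, were all higher at D6 than at D5.

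Known ligand and receptor partners differed in timing and level. *Sema3a* fell from D4 to D4H8 while *Nrp1* rose, both rose from D5 to D6, and at D6 they stood at 3.36 ± 0.372 and 17.3 ± 1.65 FPKM (SD, n = 3). *Sema3f*, the ligand of Nrp2, went from 1.53, 2.15 and 2.79 FPKM at D4 to 9.43, 6.71 and 7.39 at D6 (log2 fold change 1.95, SE 0.20), beside the steeper rise of *Nrp2*. *Sema6a* went from 2.06, 1.70 and 1.32 FPKM to 18.8, 14.7 and 13.8 (log2 fold change 3.27, SE 0.24), and its receptor *Plxna4* from near 0. *Sema6d* and its receptor *Plxna1* also differed, *Plxna1* being abundant already at D4, at 12.1, 17.9 and 21.9 FPKM, and reaching 57.2, 46.0 and 45.1 at D6.

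*Sema5a* rose to 7.38 ± 0.611 FPKM at D6, while *Plxnb3*, a receptor of it, had at most 4 counts in any library and was not detectable beyond that at this depth. Other plexins were not compared with *Sema5a*, so this does not show that it lacked a receptor. *Sema3e*, which signals through Plexin-D1 without a neuropilin, stood at 1.06, 1.23 and 2.13 FPKM at D4 and 1.09, 1.59 and 1.81 at D6, and *Plxnd1* at 1.80, 2.25 and 3.72 and 3.52, 2.27 and 3.44. Both partners of this pair had overlapping D4 and D6 libraries.

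Class 4 and class 7 pairs rose less evenly. *Sema4c* went from 10.0, 10.1 and 12.9 FPKM at D4 to 35.3, 32.5 and 33.1 at D6 (log2 fold change 1.69, SE 0.13), and *Plxnb2* from 17.6, 20.6 and 24.6 to 28.0, 27.2 and 28.9 (0.50, SE 0.12). *Sema4d* stood at 4.52, 4.64 and 6.81 and 5.37, 6.16 and 6.51, and its receptor *Plxnb1* went from 10.5, 12.1 and 13.9 to 24.7, 22.8 and 24.0 (1.05, SE 0.13). In these pairs the ligand was called with its receptor for *Sema4c* and not for *Sema4d*. *Plxnc1*, the receptor of Sema7a, went from 1.29, 1.32 and 1.39 to 4.88, 3.35 and 3.28 FPKM (1.60, SE 0.27).

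Genes that act beside or below the plexins were read from a list of 10 co-receptors and 33 signalling genes. Between D4 and D6, 7 co-receptors were higher and 2 lower, and 21 signalling genes higher and 6 lower, against 32.9% and 31% of all tested genes. The largest rises were *L1cam* (7.95, SE 0.22) and *Chl1* (7.13, SE 0.62), adhesion molecules that associate with neuropilins, and *Crmp1* (6.60, SE 0.31), a collapsin response mediator protein. *L1cam* stood at 0.34, 0.41 and 0.41 FPKM at D4 and 112, 79.2 and 79.7 at D6. The largest falls were *Rnd1* (-2.20, SE 0.35) and *Rhod* (-2.12, SE 0.33), small GTPases that bind plexins, and *Erbb2* (-1.84, SE 0.26), a kinase partner of B plexins. From D4 to D4H8, 3 co-receptors and 7 signalling genes were higher and none lower, against 4.06% and 0.32% of all tested genes, led by *Cntn2* (3.80, SE 0.30) and *Crmp1* (2.07, SE 0.26). From D4H8 to D5, 8 co-receptors rose and 2 fell, and 16 signalling genes were higher and 2 lower, against 17.2% and 10.5% of all tested genes. In the last step, D5 to D6, 5 co-receptors were higher and 3 lower, and 19 signalling genes were higher and 3 lower, against 19.2% and 15.1% of all tested genes.

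GSKJ4 cultures were compared with untreated cultures at each time to ask which members change when the Kdm6 demethylases are inhibited. At D4H8, 3 members were higher in treated cultures and 1 was lower, 4 of 30, against 2.11% and 1.85% of all tested genes (3.96% in all). *Nrp2* was the lower gene, at 4.19, 3.61 and 3.88 FPKM untreated and 1.64, 1.14 and 1.04 treated. The treated libraries lay below every untreated D4H8 library and overlapped those of D4. The log2 fold change was -1.65 (SE 0.23, adjusted p = 0.0127), and between -1.85 and -1.49 with a library left out. *Nrp1* stood at 3.50, 2.69 and 1.89 FPKM untreated and 2.55, 2.34 and 1.05 treated, which overlap, and the ratio of *Nrp2* to *Nrp1* was 1.20, 1.34 and 2.05 untreated and 0.643, 0.487 and 0.99 treated (two-sided exact permutation p = 0.1, the smallest this design allows).

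The 3 members higher in treated D4H8 cultures were ligands. *Sema3b* stood at 1.60, 1.49 and 1.16 FPKM untreated and 6.58, 2.60 and 3.77 treated (log2 fold change 1.55, SE 0.34, adjusted p = 0.0397). *Sema3e* stood at 0.79, 0.88 and 1.20 untreated and 2.04, 2.41 and 1.94 treated (1.14, SE 0.26, adjusted p = 0.0444). *Sema4b*, a transmembrane ligand, stood at 4.80, 5.70 and 5.75 untreated and 9.69, 9.0 and 9.71 treated (0.77, SE 0.17, adjusted p = 0.0412). No treated library overlapped an untreated one for these genes.

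**Figure D4:**
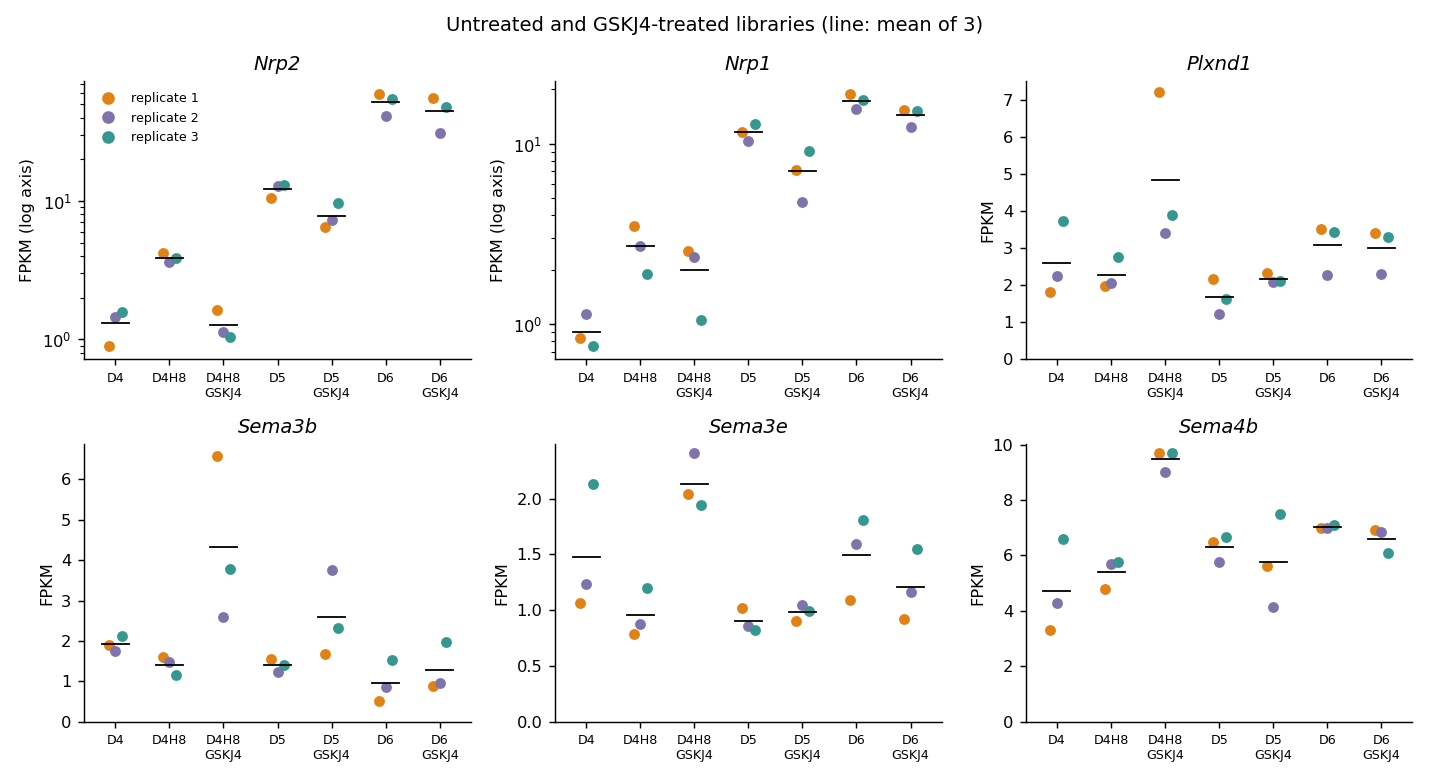
FPKM of 6 members in all 21 libraries, coloured by replicate number, with a line at the mean of 3; *Nrp2* and *Nrp1* are on log axes. At D4H8 the treated libraries of *Nrp2* (1.04 to 1.64 FPKM) lie below the untreated ones (3.61 to 4.19 FPKM), while *Sema3b*, *Sema3e* and *Sema4b* lie above them; *Plxnd1* did not pass the test.

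These D4H8 calls rest on few libraries. Without any 1 of the 3 untreated D4H8 libraries no member was called in edgeR, and 43 to 50 of 16778 to 16846 tested genes were. Over all genes 644 were called with all 6 libraries, so calls fell in general. In these refits 6 to 8 members had an unadjusted p under 0.05, against 2526 to 3235 of all tested genes. DESeq2 on all 6 libraries called 7 members, against 2215 of 16269 tested genes. A replicate block, although the numbers were not taken as pairs here, also called 7, against 14.0% of all tested genes. Without treated replicate 1 or 3 *Nrp2* was the 1 member called, and without treated replicate 2 *Plxnd1* was called as well, which made 5. Over all genes 541 and 450 were called without treated replicate 1 or 3, and 1746 without replicate 2. *Plxnd1*, the receptor of Sema3e, stood at 1.98, 2.05 and 2.76 FPKM untreated and 7.20, 3.40 and 3.89 treated (1.05, SE 0.29, adjusted p = 0.0712), with replicate 1 the highest. *Plxna1* stood at 19.5, 20.8 and 21.9 FPKM untreated and 46.7, 29.8 and 26.6 treated (0.69, SE 0.22, adjusted p = 0.10), with replicate 1 again the highest.

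Cell type markers moved in the same comparison. The neural progenitor sum of 8 genes was 389 to 572 FPKM untreated and 118 to 229.9 treated, the MN sum 55.3 to 60.2 and 11.7 to 27.2, and the neuronal sum 188 to 363 and 81.2 to 229. The fibroblast sum of 9 genes was 6.14 to 14.6 and 10.7 to 29.0 FPKM, the endothelial sum of 7 genes 2.42 to 4.22 and 4.84 to 5.47, the pluripotency sum 55.2 to 236 and 108 to 243 and the floor plate sum of 4 genes 39.1 to 47.0 and 26.7 to 57.3. The progenitor and MN sums were therefore lower in every treated library. By gene, 3 of 8 progenitor markers and 3 of the 6 MN markers tested were called lower, against 1.85% of all tested genes. None of these was called higher, and no neuronal marker was called. The part of these markers in the 4 member changes was not tested. Of the 9 co-receptors tested 1 was higher, and of the 33 signalling genes 1 was lower, against 2.11% and 1.85% of all tested genes. These were *Met*, a kinase that associates with B plexins (1.51, SE 0.31, adjusted p = 0.0331), and *Dpysl4*, a collapsin response mediator protein (-2.15, SE 0.46, adjusted p = 0.038).

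At D5 no member passed an adjusted p of 0.05 in edgeR, against 0.00613% of all tested genes. At an unadjusted p under 0.05, 6 members were lower and 1 higher, against 390 lower and 377 higher of 16309 tested genes. DESeq2 called 1 member, *Nrp2*, lower, against 73 of all tested genes in either direction. *Nrp2* stood at 10.6, 12.8 and 13.2 FPKM untreated and 6.50, 7.24 and 9.61 treated (log2 fold change -0.70, SE 0.17, adjusted p = 0.629). *Nrp1* stood at 11.7, 10.3 and 12.8 untreated and 7.14, 4.74 and 9.11 treated (-0.77, SE 0.23, adjusted p = 0.906). *Sema3d* stood at 12.5, 13.6 and 12.1 untreated and 10.4, 5.76 and 8.48 treated (-0.67, SE 0.22, adjusted p = 0.976). For these genes every treated library lay below every untreated one, and over the family 7 members lay so and 1 the other way, against 4.86% and 6.73% of all genes with a mean CPM (count scaled to the library's total) of at least 1. Replicate 2, the treated library that stood apart, was lowest for *Nrp1* and *Sema3d*. Without it, as with it, no member was called in edgeR. At an unadjusted p under 0.05, 6 members were lower and 0 higher without it, against 385 lower and 310 higher of 16918 tested genes. The MN marker sum was 229.5 to 275 FPKM untreated and 143 to 172 treated, and its part was not tested.

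At D6 no member was called in edgeR without the replicate block, against 0.0% of all tested genes. At an unadjusted p under 0.05 there were 3 members, against 222 of 16301 tested genes, and DESeq2 called no member, against 1 gene in all. Same-numbered treated and untreated D6 libraries deviated together, and with the replicate number as a block 8 members were lower and 1 higher, against 1.28% and 0.294% of all tested genes (1.58% in all). The shifts were small. *Sema3c* stood at 18.1, 19.7 and 20.3 FPKM untreated and 15.8, 15.7 and 15.1 treated in replicates 1, 2 and 3 (blocked log2 fold change -0.32, SE 0.05, adjusted p = 0.0013). *Sema3a* stood at 3.75, 3.01 and 3.32 untreated and 2.84, 2.58 and 2.38 treated (-0.38, SE 0.07, adjusted p = 0.00592). For both ligands every treated library lay below every untreated one.

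*Sema5a* moved against the others, from 8.01, 7.34 and 6.79 FPKM to 11.3, 10.2 and 8.12, without overlap (blocked log2 fold change 0.40, SE 0.05, adjusted p = 0.000103). *Nrp1* stood at 18.9, 15.6 and 17.4 untreated and 15.4, 12.4 and 15.2 treated (-0.28, SE 0.05, adjusted p = 0.0015), and *Nrp2* at 59.8, 41.2 and 54.7 and 55.9, 31.02 and 47.6 (-0.24, SE 0.05, adjusted p = 0.00683). The treated and untreated ranges overlapped for *Nrp2* and not for *Nrp1*, and within each pair both were lower in the treated culture.

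The remaining members called with the block were *Sema3d*, *Sema6a*, *Sema5b* and *Plxna2*. *Sema3d* stood at 47.2, 24.3 and 33.4 FPKM untreated and 38.2, 17.7 and 27.5 treated (blocked log2 fold change -0.35, SE 0.04). *Sema6a* stood at 18.8, 14.7 and 13.8 and 14.2, 12.2 and 10.3 (-0.37, SE 0.05). In both, as in all 4 genes, the ranges overlapped and each treated library was below its own pair. *Sema5b* stood at 11.4, 5.69 and 6.22 and 8.89, 4.54 and 4.85 (-0.36, SE 0.06), and *Plxna2* at 10.5, 8.68 and 8.01 and 9.34, 6.83 and 7.52 (-0.21, SE 0.05, adjusted p = 0.046).

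By sign alone, 17 of the 29 members with a mean CPM of at least 1 were lower in all 3 pairs and 2, *Sema5a* and *Sema3b*, higher in all 3, where 15.3% and 17.8% of all such genes were. With the block and without number 1, 2 or 3, 6, 7 and 9 members were called. Without number 1 the calls of *Sema3a* (adjusted p = 0.0732), *Sema5b* (adjusted p = 0.0816) and *Plxna2* (adjusted p = 0.216) were lost, and without number 2 those of *Nrp2* (adjusted p = 0.172) and *Plxna2* (adjusted p = 0.41). The neuronal marker sum was 2726 to 3059 FPKM untreated and 2692 to 3182 treated, and the MN sum 410.4 to 470.3 and 368 to 446, ranges that overlap. With the same block, however, 2 of 7 MN markers were lower, *Isl2* (-0.54, SE 0.07) and *Slc5a7* (-0.32, SE 0.05), against 1.28% of all tested genes. Also lower were 2 of the 8 fibroblast markers tested, *Col3a1* (-0.58, SE 0.07) and *Pdgfra* (-0.57, SE 0.12). Of the 5 interneuron markers tested, 1 was lower, *Lhx1* (-0.81, SE 0.13). No neuronal or progenitor marker was called. The fibroblast sum was 12.9 to 29.3 FPKM untreated and 10.5 to 26.3 treated and the interneuron sum 7.59 to 10.2 and 5.18 to 8.13, and the part of these markers in the member changes was not tested.

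**Figure D5:**
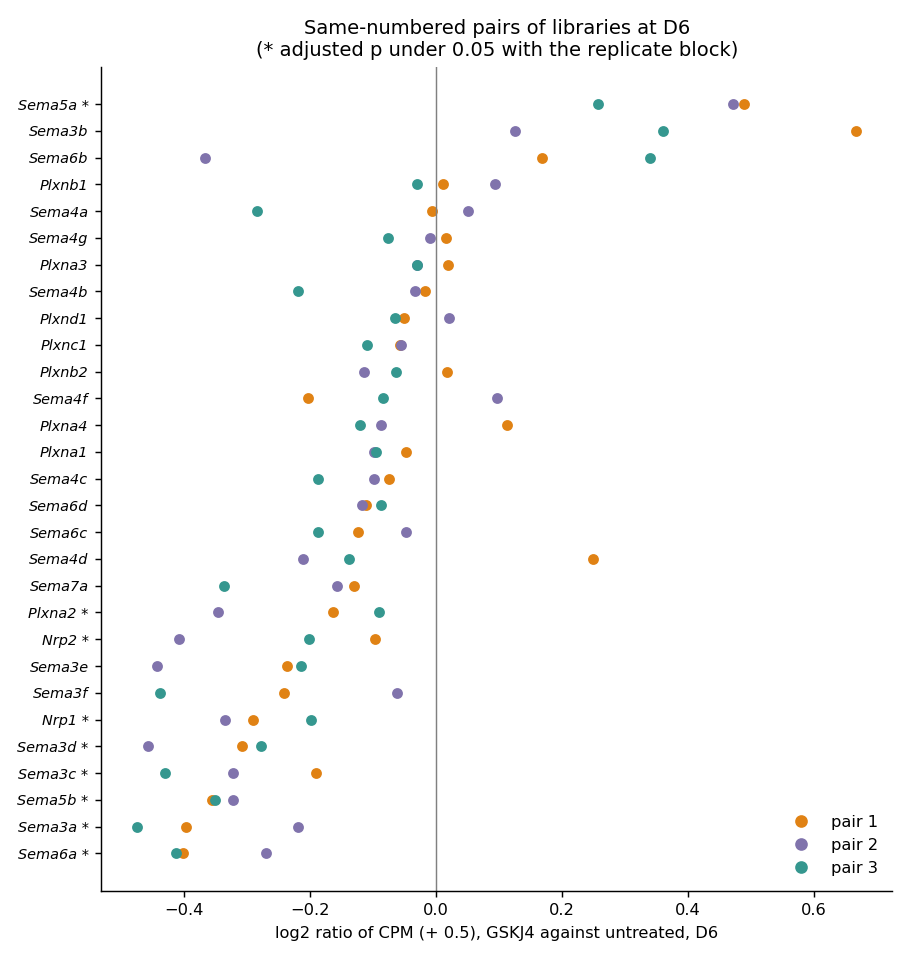
Log2 ratio of treated to untreated CPM (+ 0.5) at D6 in the 3 same-numbered pairs, for the 29 members with a mean CPM of at least 1; asterisks mark the 9 members called with the replicate block. Most points lie left of 0, with *Sema5a* and *Sema3b* to the right in all 3 pairs.

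Whether the GSKJ4 effect itself differed between stages was tested on the 18 libraries of D4H8, D5 and D6. *Nrp2* was the 1 member called, for D6 against D4H8, with a difference in log2 fold change of 1.44 (SE 0.33, adjusted p = 0.048), against 0.735% of all tested genes. Of the MN markers 3 of 7 were called with a difference of the same sign, and of the progenitor markers 1 of 8. The median differences of these lists were 1.404 and 1.502, and no neuronal marker was called. The part of these markers in the difference for *Nrp2* was not tested. The effect on *Nrp2* was -1.65 at D4H8 and -0.22 at D6. The call was lost in 16 of 18 refits without a library, with adjusted p up to 0.166, and with RLE scaling (adjusted p = 0.0564). With the replicate block *Sema3e* was called too, 2 members against 2.71% of all tested genes, its difference being -1.45 (SE 0.33, adjusted p = 0.0284). No member was called in edgeR for D5 against D4H8 (0.249% of all tested genes) or for D6 against D5 (0.0%). At an unadjusted p under 0.05 there were 5 members and 1 member, against 1817 and 358 of 18103 tested genes. DESeq2 called 1 and 0 members, against 247 and 1 of all tested genes. The 1 member for D6 against D5 was *Sema5a*, at 1.69, 1.42 and 1.07 FPKM untreated and 1.04, 0.53 and 0.55 treated at D5 (change of effect to D6 1.44, SE 0.39, adjusted p = 1).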

How the data were processed

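PolyA RNA of 21 libraries, 3 biological replicates in each of 7 groups, was sequenced. Per the labels and the study's methods, the authors trimmed reads with Fastp, aligned them to mm10 with Hisat2, sorted them with SAMtools and used HTSeq-count to count them on Ensembl genes. Which strand was counted was not given in the sources used here. The authors deposited raw counts and FPKM for 55400 genes, of which 55140 had a symbol. FPKM recomputed from the counts differed by at most 0.005 from the deposited FPKM. Gene positions are from GENCODE on GRCm38.

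Counts were tested with edgeR 4.0.16 (limma 3.58.1, R 4.3.3) by the quasi-likelihood test after TMM scaling and filterByExpr with a minimum count of 10, with Benjamini-Hochberg adjustment over all tested genes. Stages were fitted on the 12 untreated libraries, each GSKJ4 comparison on its own 6, and differences of effect on 18. FPKM served for levels between genes, and sums were compared by exact permutation in scipy 1.17.1. The alternatives were RLE and upper-quartile scaling, DESeq2 1.42.0, no filter on low counts, a minimum of 10 counts in each library, a replicate block, one fit of the 21 libraries together, and leaving out single libraries. The code was tested on simulated data. No 2 replicates were the same library.

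Deviations of same-numbered libraries correlated at r = 0.833, 0.525 and 0.671 for treated and untreated D6, so these were taken as pairs. Successive untreated stages, where r was 0.174 to 0.408, were also taken as pairs. The stage values and the differences of effect are nevertheless from fits without the block, which was run as an alternative. Pairing was taken only where every r was at least 0.1. It was thus not taken between treated and untreated cultures at D4H8 (r = 0.495, 0.089 and 0.312) or D5 (0.301, 0.0814 and 0.306), nor between D6 and D4. At D4H8 and D5 each treated library still correlated best with the untreated library of its own number, so pairing there is possible. The members and gene lists were chosen with earlier results of these data known. Every library is given for the 3 largest called rises and falls of each stage comparison, for members called under GSKJ4, and for known ligand and receptor partners.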

Additional observations from a re-analysis of the deposited data

Results flagged for a closer look

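The effect of GSKJ4 on *Nrp2* differed between stages by a test of the difference itself. The log2 fold change was -1.65 at D4H8 and -0.22 at D6, a difference of 1.44 (SE 0.33, adjusted p = 0.048 in edgeR), and at D5 it was -0.70. Every treated D4H8 and D5 library was below every untreated library of its stage, and at D6 the ranges overlapped. The adjusted p ranged from 0.0163 to 0.166 with a library left out, and the call held in 2 of those 18 refits. The difference was not particular to *Nrp2*. In the same test 3 of 7 MN markers (list median 1.404) and 1 of 8 progenitor markers (list median 1.502) were called with the same sign. Their part in the difference for *Nrp2* was not tested.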

How the results depend on the processing

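Directions of single members held in nearly every setting, while counts of GSKJ4 calls did not. For members in the comparisons in which they were called (with the block at D6), leaving out a library kept 949 values on their side of the threshold, lost 94 and reversed 1, and the other alternatives kept 622, added 9 and lost 18. Part of the kept values came from refits that left the compared groups whole. At D6 the reference was the fit without the block, so its 53 kept values are members not called. Under GSKJ4 at D4H8, 6 values were kept and 18 lost, and for the difference of effect between D6 and D4H8, 2 and 16. The reversal was *Sema5b* under GSKJ4 at D6 without D6 replicate 1 (0.072 against -0.36, neither called), with values from -0.78 to 0.072 over the libraries left out. From D4 to D4H8, 7 members were called, and 4 in the fit over all 21 libraries, and 4 to 8 with a library left out. With upper-quartile scaling the median over all genes between D6 and D4 went from -0.04 to -0.19 and no large rise was lost.

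Under GSKJ4 at D4H8, 4 members were called, against 7 with DESeq2, 8 with no filter, 8 in the fit over 21 libraries, 7 with the replicate block and 0 to 5 with a library left out. Calls over all genes moved too, from 644 to 2215, 2287, 2048 and 2274 in these fits, and to 43 to 1746 with a library left out. There the numbers were not taken as pairs, because the lowest r was 0.089, although 3 libraries correlated best with their own number. At D5, DESeq2 called 1 and the fit with no filter 4, against 0 (73 and 128 of all tested genes, against 1). At D6 the replicate block called 9 against 0, and 6 to 9 without a replicate number, an alternative chosen after seeing the data. For the difference of effect, D5 against D4H8 gave 1 with DESeq2 and 1 with no filter, against 0 (247 and 351 of all tested genes, against 45). D6 against D4H8 gave 3 with DESeq2, 2 with at least 10 counts in every library, 2 with no filter, 2 with the block and 0 to 2 with a library left out, against 1. Over all genes these fits called 603, 208, 626, 491 and 40 to 284, against 133. D6 against D5 gave 1 with no filter, against 0 (13 of all tested genes, against 0). The cause was not tested. With the replicate block *Sema4c* (adjusted p = 0.0254) and *Plxnb1* (adjusted p = 0.0417) joined the calls from D4 to D4H8, 9 against 7, and the block otherwise changed no count of stage calls by over 1.5 times. *Plxnb3* and *Sema3g* are limited by depth.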
